A study of Mus musculus with 12 samples.

Results

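Embryoid bodies grown from a mouse embryonic stem cell line were compared on the fifth and the fourth day of differentiation. The comparison rests on 6 of the 12 arrays of the series, all from the line built to overexpress Geminin. The 4 day 5 arrays are replicates 1 and 2, each with and without doxycycline (dox), and the 2 day 4 arrays are replicate 3, with and without dox. Gene expression was measured on Affymetrix whole-transcript arrays, and every value is a log2 intensity after quantile normalisation of the 12 arrays. The other 6 arrays are day 4 embryoid bodies of a second line, in which dox induces microRNAs against Geminin; they serve here as further day 4 samples and enter the spread that every test uses.

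Both lines are A2lox cells of the 129P2/OlaHsd strain, which carry a dox-dependent activator and a site beside Hprt for a dox-driven transgene. In the overexpression line, dox was given at 0.5 µg/ml from day 3, so the dox arrays of day 4 and of day 5 differ in the length of exposure. The controls carry the same transgene and received no dox. In the knockdown line dox was given at 0.5 µg/ml from day 0. Before differentiation the stem cells were kept on irradiated mouse fibroblasts with LIF and serum and were then separated from them. Nothing in the labels says whether the replicates are separate cultures, and the p-values cover no more than the spread among the arrays, which may be technical. Day 4 of the overexpression line exists only as replicate 3, so day and replicate 3 cannot be told apart. In bulk RNA, fewer cells of a type and less RNA per cell also cannot be told apart.

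Embryoid bodies are aggregates in which stem cells released from LIF leave pluripotency much as the early embryo does. Cells pass through an epiblast state, in which the de novo DNA methyltransferases are high, and then through a primitive streak state marked by Mixl1 and Eomes. Streak cells give mesoderm, which later divides into paraxial, lateral, cardiac and blood-forming parts, and endoderm. BMP, Wnt, Nodal, FGF and retinoic acid signals steer these choices. Geminin, encoded by Gmnn, binds the licensing factor Cdt1 and blocks a second round of DNA replication within a cycle.

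Apart from brachyury, the markers chosen for pluripotent, primitive streak, mesoderm and endoderm cells all passed the intensity filter. Averaged over the 12 arrays, Pou5f1 stood at the 99.2 percentile of genes, Nanog at the 97.9, Mixl1 at the 88.7, Eomes at the 88.4, Gata4 at the 83.3 and Kdr at the 55.4. Dimmer markers were Sox17 at the 46.4, Foxf1 at the 42.8 and Mesp1 at the 32.9 percentile. The embryonic globin Hbb-bh1, the trophoblast gene Tpbpa and the fibroblast gene Lum lay below the intensity filter, at the 13.7, 8.0 and 7.62 percentiles. Other markers of the same classes lay above it. They were the blood genes Tal1 (72.7) and Gata1 (60.8), the trophoblast gene Elf5 (21) and the fibroblast genes Col1a1 (61.7), Thy1 (48.6) and Dcn (24.2). The streak gene brachyury was not analysed here. Array medians spanned 0.324 log2 units before normalisation. Gmnn read 10.35 without and 11.04 with dox on day 4, against 10.29 and 11.38 in replicate 1 and 10.15 and 10.83 in replicate 2 on day 5. It was thus higher in the dox array of each pair, and its day difference was -0.03 ± 0.15 (limma, adjusted p = 0.955). Hprt read 8.08 and 11.74 on day 4, 7.33 and 11.07 in day 5 replicate 1 and 8.22 and 11.14 in replicate 2, and differed by -0.47 ± 0.35 between the days (limma, adjusted p = 0.606).

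Of 15950 genes tested, 63 rose and 26 fell between day 4 and day 5. The genes that rose include signals and receptors of mesoderm and endoderm (Bmp5, Bmp2, Dkk1, Shh, Nrp1), the retinoic acid-making enzyme Aldh1a2 and the transcription factors Tbx20 and Foxc1. Those that fell include the pluripotency gene Pou5f1, the methyltransferases Dnmt3a and Dnmt3b and the G1/S cyclin Ccne1. The called genes are 0.558% of all tested (0.395% higher, 0.163% lower) at an adjusted p under 0.05 in limma, with the day difference taken as the mean of 4 arrays minus the mean of 2 and its standard error (SE) pooled over all 12. Arrays that shared a replicate number were alike. The median gene differed by 0.101 between the dox and control arrays of day 5 replicate 1, by 0.0894 in replicate 2 and by 0.111 on day 4. The means of the day 5 replicates differed from each other by 0.181, more than replicate 1 (0.153) or replicate 2 (0.164) differed from day 4. The SE and adjusted p printed here treat arrays that share a number as independent. No gene passed with replicate number within each line as a random block in limma (smallest adjusted p = 0.108). In that fit 1273 genes, 7.98%, had an unadjusted p under 0.05. None passed without the day 5 control array of replicate 1 (2136 unadjusted), the day 4 control array (1014) or the day 4 dox array (944). Only 3 passed without the day 5 control array of replicate 2, 13 without its dox array, 15 without the knockdown dox array of replicate 3, and 35 and 37 without the knockdown control or dox array of replicate 1, while 148 passed without the knockdown control array of replicate 2. Without both day 5 arrays of replicate 1, 350 genes passed, and without both of replicate 2, 3 passed.

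A second measure needs no model. A gene was taken as consistent when all 4 day 5 arrays lay on one side of both day 4 arrays of the same line. This held for 4858 genes, 30.5% of those tested, of which 2454 (15.4%) were higher and 2404 (15.1%) were lower on day 5. With arrays centred on their medians in place of quantile normalisation, the median day difference of all genes was 0.03, against -0.00. The consistent genes were then 2283 higher and 1426 lower. All 89 called genes were consistent. The stricter measure asked that the day 5 arrays also lie beyond the 6 day 4 arrays of the knockdown line, in which line and day differ together. It held for 1378 genes (8.64%), 787 higher (4.93%) and 591 lower (3.71%), among them 50 of the genes that rose and 23 of those that fell. The counts of list members below are to be read against these shares of all genes and, for called genes, against 0.558%. The gap between the day 5 replicates was larger than the day difference in 13.9% of consistent genes and in 58.8% of all genes. It was larger in none of the 89 called. The spread that the test uses includes that gap, and the calls rest on the same arrays. Neither this count nor the consistency of all 89 is therefore separate support for the calls. An exact permutation test of 4 arrays against 2 cannot go below a two-sided p of 0.133, which every consistent gene reaches.

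**Figure D1:**
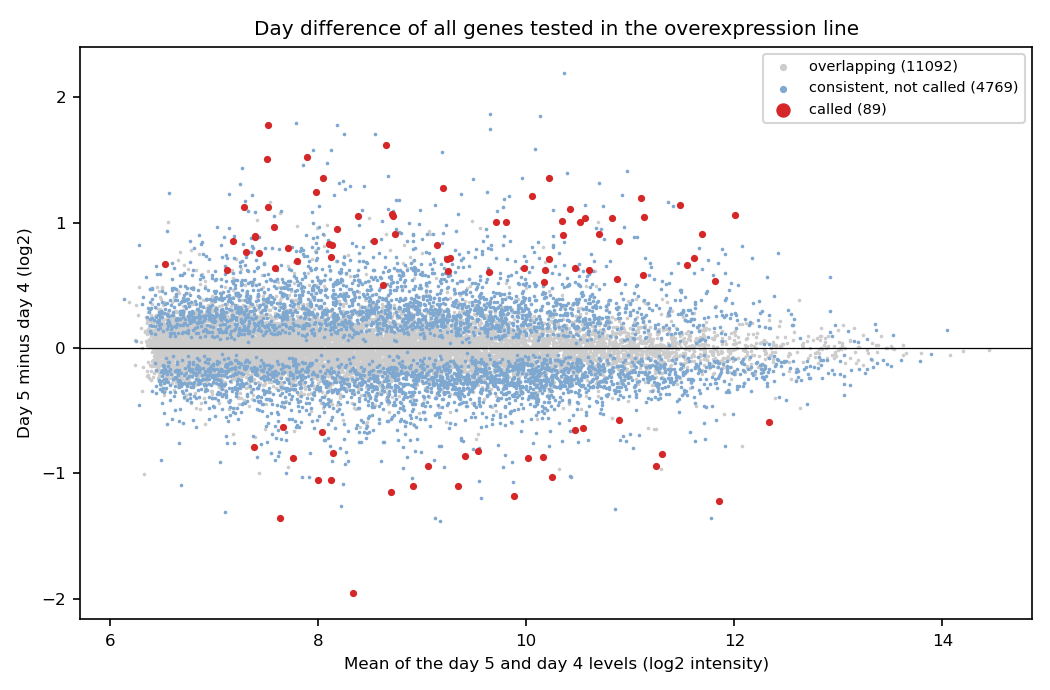
Day 5 minus day 4 (log2, vertical) against the mean level of both days (log2 intensity, horizontal) for the 15950 genes tested in the overexpression line. Red points are the 89 called genes, blue points the consistent genes that were not called and grey points the genes whose days overlap; Bmp5 is the highest red point and Tmem54 the lowest.

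Several secreted signals were among the genes that rose, and Bmp5 rose most of the 63. Bmp5, a ligand of the BMP family, read 6.52 and 6.74 on day 4 (control, then dox), 8.36 and 7.69 in day 5 replicate 1 and 8.79 and 8.80 in replicate 2. It was 3.43-fold higher on day 5 (log2 difference 1.78 ± 0.29, limma adjusted p = 0.0367), and the knockdown line on day 4 lay lower still, at 5.62 to 6.37. Bmp2, a second BMP ligand, read 7.87 and 7.85 on day 4, 9.01 and 8.31 in replicate 1 and 9.32 and 9.005 in replicate 2 (1.05 ± 0.19, adjusted p = 0.0433). For both ligands the replicate 1 dox array was the lowest of day 5. Dkk1, a secreted Wnt inhibitor of anterior mesendoderm, read 8.61 and 8.52 on day 4, 10.26 and 9.88 in replicate 1 and 9.57 and 9.63 in replicate 2 (1.28 ± 0.20, adjusted p = 0.0346). Replicate 1 was thus the higher of the pair for Dkk1 and the lower for Bmp5. Shh, the signal of notochord and endoderm, rose by 0.80 ± 0.14 (adjusted p = 0.0402), from 7.43 and 7.20 to between 7.94 and 8.37. Sema3a, a guidance signal, and Nrp1, its co-receptor, rose together by 1.12 ± 0.13 (adjusted p = 0.0155) and 1.35 ± 0.21 (adjusted p = 0.0346). Nrp1 read 7.33 and 7.41 on day 4 against 8.75, 8.14, 9.04 and 8.97 on day 5. In the knockdown line it lay between 5.71 and 6.24.

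Enzymes and transcription factors of mesoderm rose as well. Aldh1a2, which makes retinoic acid, read 7.22 and 7.04 on day 4, 8.47 and 8.22 in day 5 replicate 1 and 9.01 and 8.92 in replicate 2. Its difference of 1.52 ± 0.22 (limma adjusted p = 0.0233) is 2.88-fold. Foxc1, a forkhead factor of paraxial mesoderm, read 6.81 and 7.08 and then 7.86, 7.67, 7.83 and 7.999 (0.90 ± 0.12, adjusted p = 0.0212). Tbx20, a T-box factor of lateral and cardiac mesoderm, read 7.29 and 7.44 and then 8.54, 8.11, 8.96 and 8.82 (1.24 ± 0.22, adjusted p = 0.0457). The day 5 replicates were close for Foxc1 and further apart for Tbx20. Myocd, a coactivator of smooth and cardiac muscle genes, rose by 0.67 ± 0.11 (adjusted p = 0.0373), and Tnnc1, the troponin C of heart and slow muscle, by 0.95 ± 0.16 (adjusted p = 0.0384). Myocd was dim throughout. It read 6.37 and 6.03 on day 4, below the intensity filter of log2 6.46, and 6.83, 6.93, 6.91 and 6.81 on day 5. The knockdown line read 6.48 to 6.73.

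Ifitm1, an interferon-inducible membrane protein also known from nascent mesoderm and germ cell precursors, had one of the smallest p-values. It read 9.84 and 9.90 on day 4 and 10.96, 10.94, 10.83 and 11.18 on day 5 (1.11 ± 0.11, limma adjusted p = 0.0115), and no knockdown array exceeded 9.35. The remaining genes among the 15 that rose most, by 1.07 to 1.62, were Cryab, a small heat shock protein, Capn6, a calpain relative, Cyba, a subunit of the NADPH oxidase, Mfge8, a secreted adaptor for apoptotic cells, Uap1l1, Gpc3, a heparan sulphate proteoglycan of the cell surface, Cyp2j6, a cytochrome P450, and Adssl1, an enzyme of AMP synthesis. Cyba read 9.49 and 9.61 and then 10.75, 10.97, 10.93 and 10.96, with the replicate 1 control array apart from the other three day 5 arrays. Capn6 read 6.71 and 6.80 and then 8.44, 7.74, 8.49 and 8.38, with the replicate 1 dox array apart. The day 5 arrays of Uap1l1 overlapped those of the knockdown line, unlike the other 14.

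Tmem54 showed the largest fall. It read 9.18 and 9.44 on day 4 and 7.26, 7.77, 7.33 and 7.06 on day 5, a 3.88-fold difference (-1.95 ± 0.26, limma adjusted p = 0.0175), while the knockdown line read 8.54 to 9.59. L1td1, an RNA-binding protein of pluripotent cells, fell from 11.61 and 11.82 to 10.70, 10.94, 10.76 and 10.71 (-0.94 ± 0.10, adjusted p = 0.0115), with the knockdown line at 11.82 to 12.02. Both genes were low on all 4 day 5 arrays, with no split by replicate or dox. Others among the 15 that fell most were Tcfl5, a bHLH transcription factor, Mmp25, a membrane-anchored metalloproteinase, Syt11, a synaptotagmin, Ugt8a, which makes galactosylceramide, Ina, a neurofilament subunit, Usp44, a deubiquitinase of the spindle checkpoint, Ccnb1ip1, a meiotic crossover protein, Pde2a, a cyclic nucleotide phosphodiesterase, and Med14, a Mediator subunit. The rest were Fam131b, Pdzd4, Bend3 and Dnmt3b. Their differences ran from -1.36 to -0.87.

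**Figure D2:**
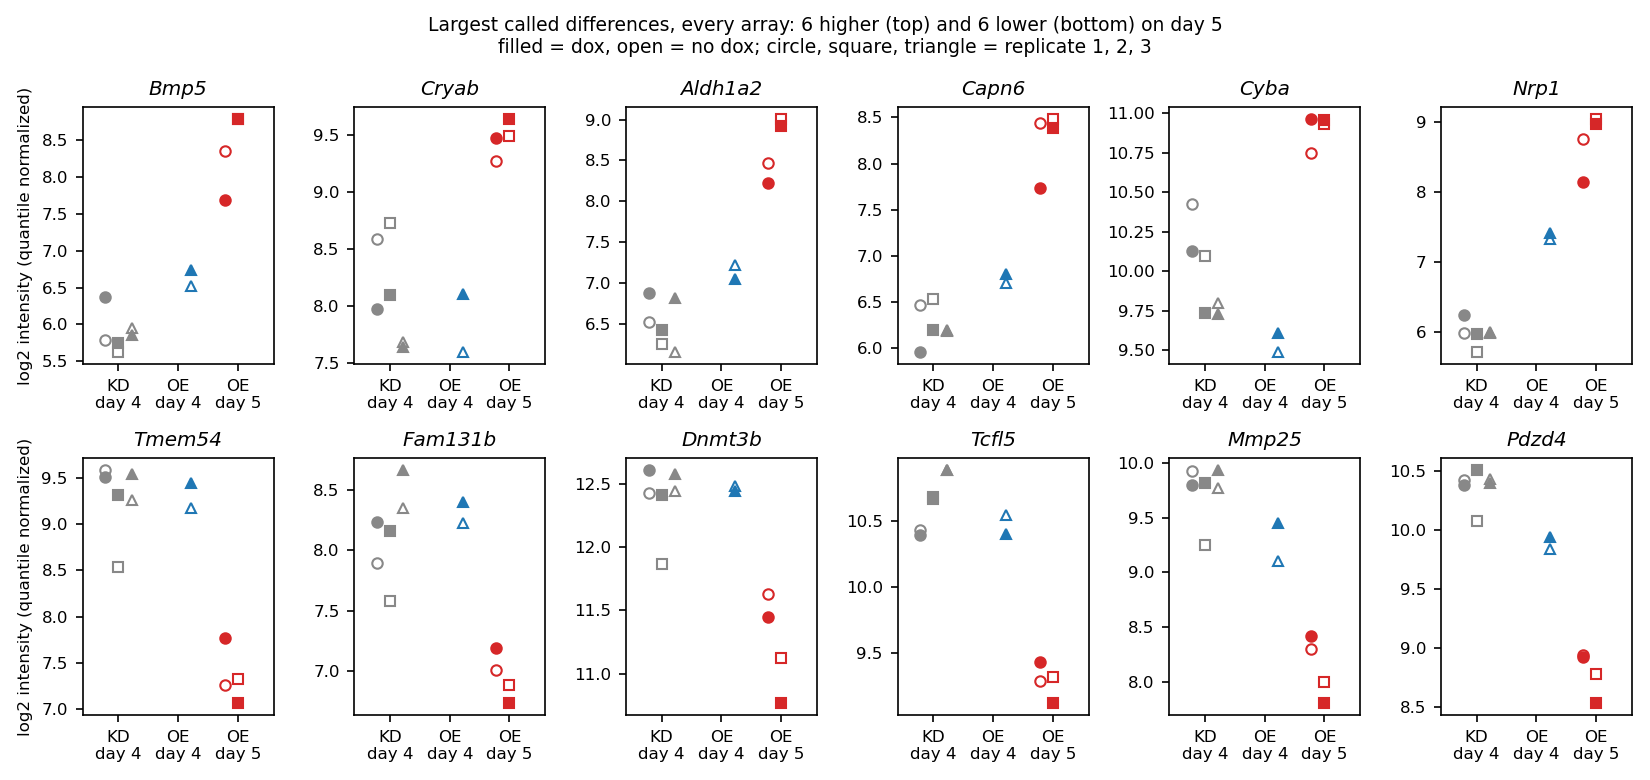
Log2 intensity (vertical) of the 6 genes that rose most and the 6 that fell most, one point per array, with the knockdown line on day 4 in grey, the overexpression line on day 4 in blue and on day 5 in red. Filled points had dox, and circles, squares and triangles are replicates 1, 2 and 3; in each panel the 4 red points lie on one side of both blue points.

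Genes of the primed epiblast were mostly lower on day 5. Of 18 primed epiblast genes tested, 10 were lower and 3 higher on all 4 day 5 arrays, 6 were lower than all 8 day 4 arrays, and 3 fell by the test (Dnmt3b, Dnmt3a and Enpp3). The median difference was -0.65, against -0.00 for all genes. Dnmt3b, a de novo DNA methyltransferase, read 12.48 and 12.44 on day 4, 11.63 and 11.45 in day 5 replicate 1 and 11.12 and 10.77 in replicate 2 (-1.22 ± 0.22, limma adjusted p = 0.0457). Its partner Dnmt3a read 10.71 and 10.89 and then 10.18, 10.22, 10.09 and 10.08 (-0.66 ± 0.12, adjusted p = 0.0457). Replicate 2 was lower than replicate 1 for Dnmt3b, while the 4 day 5 arrays of Dnmt3a lay close together. Enpp3, an ectonucleotidase, fell by 0.86 ± 0.16 (adjusted p = 0.0458). Zic2, a zinc finger factor, and Wnt8a, a Wnt ligand, differed by -1.07 ± 0.32 (adjusted p = 0.156) and -1.04 ± 0.52 (adjusted p = 0.397). Fgf5, the epiblast growth factor, split by replicate. It read 10.86 and 10.66 on day 4, 10.97 and 10.84 in replicate 1, and 9.52 and 9.08 in replicate 2.

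Of 19 general pluripotency genes, 6 were lower and 1 higher on all 4 day 5 arrays, and Pou5f1 and L1td1 fell. Pou5f1, the core pluripotency factor Oct4, read 12.61 and 12.64 on day 4 and 12.05, 12.13, 12.001 and 11.96 on day 5. It was 1.503-fold lower (-0.59 ± 0.10, limma adjusted p = 0.0383), below all 6 knockdown arrays (12.54 to 12.77). Utf1, a chromatin factor of pluripotent cells, differed by -0.84 ± 0.26 (adjusted p = 0.17). The list median was -0.25, made of -0.45 in replicate 1 and -0.02 in replicate 2. Of 13 methyltransferase and Tet genes, 4 were lower (Dnmt1 and its cofactor Uhrf1 beside Dnmt3a and Dnmt3b) and 3 higher on all 4 arrays.

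Naive pluripotency genes gave no common direction in the day 5 replicates. Of 18 tested, 5 were higher and 1, Nanog, lower on all 4 day 5 arrays, none lay beyond all 8 day 4 arrays and none passed the test. Nanog read 12.02 and 12.02 on day 4, 11.25 and 11.53 in replicate 1 and 11.68 and 11.78 in replicate 2 (-0.46 ± 0.17, limma adjusted p = 0.267). The list median was -0.03 in replicate 1 and 0.78 in replicate 2. Esrrb, an orphan nuclear receptor of naive cells, read 7.92 and 8.03 on day 4, 7.97 and 8.11 in replicate 1, and 9.80 and 10.17 in replicate 2. Nr0b1 likewise read 9.10 and 9.05, then 8.81 and 8.92, then 10.85 and 11.54. For both genes replicate 1 resembled day 4 while replicate 2 stood higher, and the gap between replicates exceeded the day difference in 14 of the 18 genes.

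Genes of the primitive streak were partly lower and none passed the test. Of 23 tested, 8 were lower and 0 higher on all 4 day 5 arrays, 0 lay beyond all 8 day 4 arrays, and the median was -0.18. Eomes, a T-box factor of streak and endoderm, read 11.60 and 11.25 on day 4, 11.18 and 10.91 in replicate 1 and 10.36 and 10.06 in replicate 2 (-0.80 ± 0.59, limma adjusted p = 0.608). Mixl1, a homeobox factor of the streak, read 11.94 and 11.79, then 11.84 and 11.88, then 10.88 and 10.995. Replicate 1 thus overlapped day 4 for Mixl1 and replicate 2 lay below it. The mean level of the list on day 4 was 9.19 to 9.29 in the overexpression line and 7.37 to 8.64 in the knockdown line, so the lines differed on the same day.

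Lateral and extraembryonic mesoderm genes had the highest share of higher members among the 39 lists. Of 27 tested, 18 (66.7%) were higher and 1 lower on all 4 day 5 arrays, 11 were higher than all 8 day 4 arrays, and Bmp5, Bmp2 and Tbx20 rose by the test. The median difference was 0.74, with 0.57 in replicate 1 and 1.10 in replicate 2. The mean level of the 27 genes was 8.68 on both day 4 arrays, 9.28 and 9.07 in replicate 1 and 9.72 and 9.77 in replicate 2, and 7.89 to 8.10 in the knockdown line. Foxf1, the forkhead factor of lateral plate and extraembryonic mesoderm, read 7.41 and 7.38 on day 4, 8.59 and 8.12 in replicate 1 and 9.68 and 10.00 in replicate 2. It was 3.26-fold higher on day 5, with a difference of 1.70 ± 0.42 (limma adjusted p = 0.105). Igf2, a growth factor of mesoderm, differed by 1.41 ± 0.38 (adjusted p = 0.129) and Kdr, the VEGF receptor of vascular precursors, by 0.93 ± 0.30 (adjusted p = 0.184). Acta2, smooth muscle actin, differed by 1.39 ± 0.44 (adjusted p = 0.18). The member lower on day 5 was Cnn1, calponin (-0.69 ± 0.55, adjusted p = 0.64). Hand1, a bHLH factor of the same tissues, read 9.57 and 9.17 on day 4 and 9.29 to 9.80 on day 5, with the days overlapping.

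In the BMP pathway the ligands Bmp5 and Bmp2 rose and no other member passed the test. Of 28 genes tested, 12 were higher and 0 lower on all 4 day 5 arrays, 11 were higher than all 8 day 4 arrays, 2 rose by the test and the median was 0.33. Among ligands, Bmp4 read 9.20 and 9.19 on day 4, 9.81 and 9.73 in replicate 1 and 10.92 and 11.07 in replicate 2 (1.19 ± 0.39, limma adjusted p = 0.198), beside the rises of Bmp5 and Bmp2. Bmp7 read 8.23 and 8.11 and then 9.23, 8.94, 8.95 and 9.03 (0.87 ± 0.20, adjusted p = 0.0897). Bmp6 overlapped (0.04 ± 0.14). The receptors Bmpr1a, Bmpr1b, Bmpr2 and Acvr1 differed by -0.08, -0.05, 0.09 and -0.00, and the days overlapped in each. The signal-carrying Smad1, Smad5 and Smad9 differed by 0.13, -0.07 and 0.09 and also overlapped. Among targets, Msx2 differed by 1.14 ± 0.27 (adjusted p = 0.0933), Id3 by 0.79 ± 0.32, Id1 by 0.39 ± 0.16 and the decoy receptor Bambi by 0.72 ± 0.15 (adjusted p = 0.0666), each higher on all 4 arrays. The extracellular modulator Bmper differed by 1.10 ± 0.26 (adjusted p = 0.0963) and the antagonist Nog by 0.51 ± 0.14 (adjusted p = 0.131), while Smad7, an inhibitor, read -0.39 ± 0.24 with overlap.

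No gene of the mesenchymal transition passed the test. Of 27, 15 were higher and 0 lower on all 4 day 5 arrays, 11 of them beyond all 8 day 4 arrays, with a median of 0.38. Lgals1, galectin 1, read 10.70 and 10.87 on day 4 and 12.06, 12.18, 11.73 and 11.82 on day 5 (1.16 ± 0.27, limma adjusted p = 0.0826). The repressors of E-cadherin Zeb1, Zeb2 and Twist2 differed by 0.86, 0.54 and 0.45 and were higher on all 4 arrays, while Snai1 did not separate (-0.01 ± 0.18). Among 24 epithelial junction genes, 6 were higher and 5 lower. Krt18 and Krt8, the simple keratins, were among the higher (1.13 ± 0.43 and 0.71 ± 0.54), and Cdh1, E-cadherin, the splicing factor Esrp1 and the grainyhead factor Grhl2 among the lower (-0.35 ± 0.17, -0.78 ± 0.27 and -0.61 ± 0.17).

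**Figure D3:**
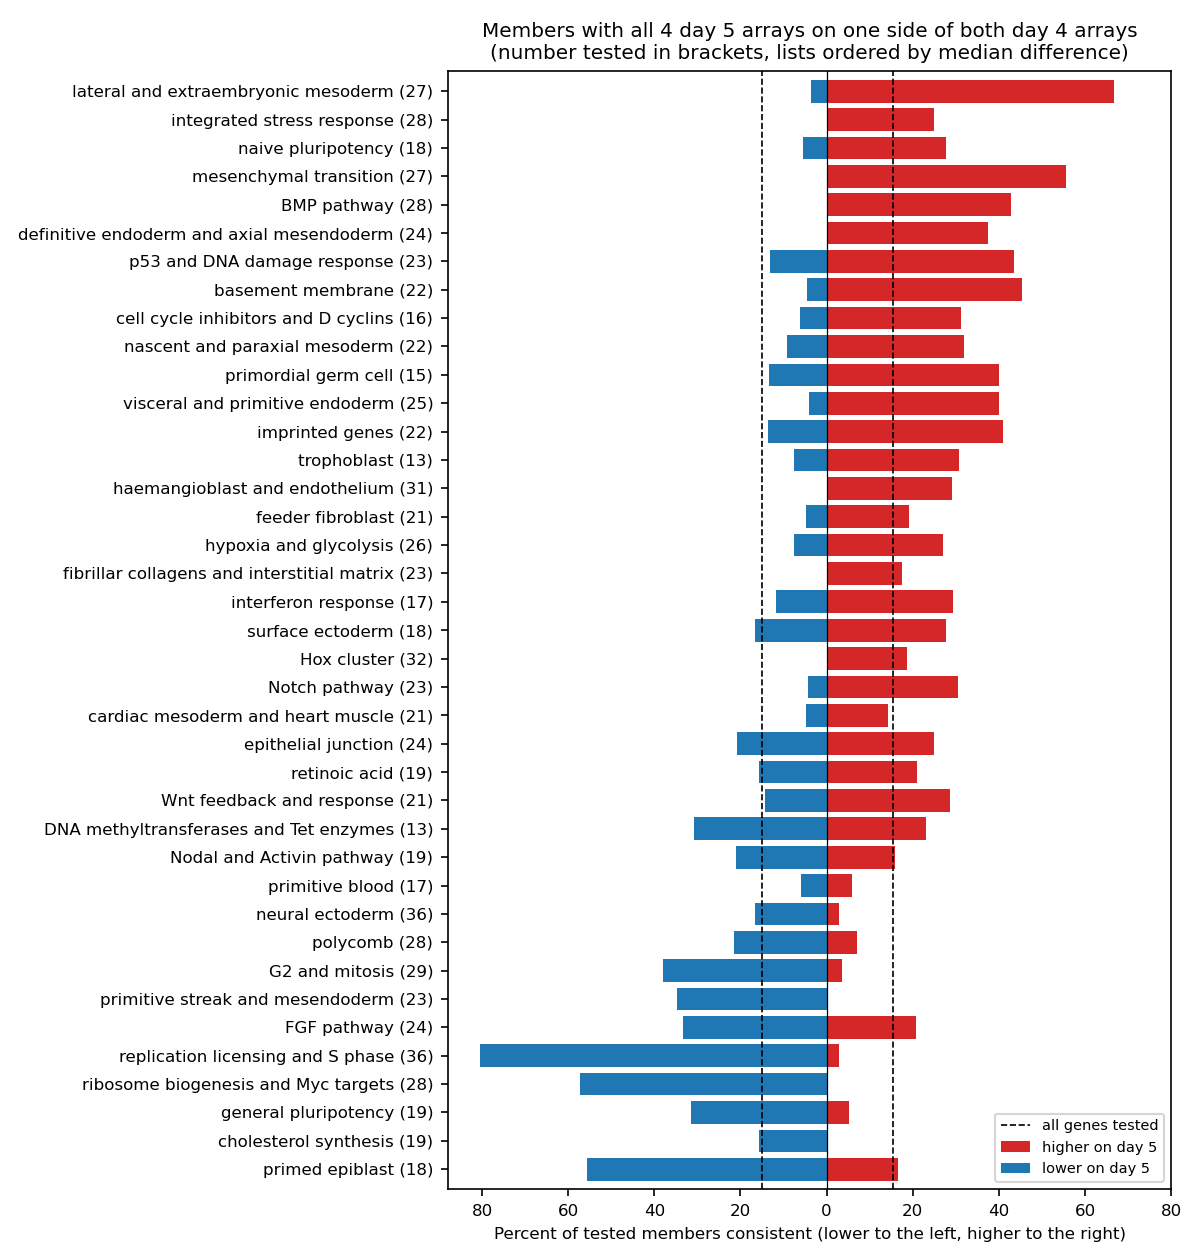
Percent of the tested members of each gene list that were higher (red, right) or lower (blue, left) on all 4 day 5 arrays than on both day 4 arrays, with lists ordered by median difference and the number tested in brackets. Dashed lines mark the share over all genes tested, 15.4% higher and 15.1% lower; lateral mesoderm reaches 66.7% higher and replication licensing 80.6% lower.

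Paraxial mesoderm, cardiac and endothelial genes gave fewer differences. Over all genes tested, 15.4% were higher and 15.1% lower on all 4 day 5 arrays. The higher shares of the cardiac (14.3%) and Hox (18.8%) lists lay near that. Of 22 paraxial genes, 7 were higher and 2 lower on all 4 day 5 arrays and Aldh1a2 and Foxc1 rose. Rspo3, a Wnt enhancer, differed by 1.24 ± 0.28 (limma adjusted p = 0.0796) and Tbx6, the paraxial T-box factor, by 0.42 ± 0.13 (adjusted p = 0.183). Of 21 cardiac genes, 3 were higher and 1 lower, and Tnnc1 and Myocd rose. The lower gene was Myh6, a heart myosin (-0.34 ± 0.10, adjusted p = 0.156), which lay below all 8 day 4 arrays. The heart factor Nkx2-5 and the sarcomere genes Tnnt2 and Actc1 did not separate (-0.12 ± 0.12, 0.06 ± 0.10 and -0.14 ± 0.45). Of 31 haemangioblast and endothelial genes, 9 were higher and 0 lower, and the list median was -0.05 in replicate 1 and 0.34 in replicate 2. Etv2, which starts the blood and vessel programme, overlapped (-0.34 ± 0.30). Of 17 primitive blood genes, 1 was higher and 1 lower, and Gata1 differed by -0.05 ± 0.15. Of 32 Hox genes, 6 were higher, 0 lower and 0 beyond all 8 day 4 arrays.

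Definitive endoderm and axial mesendoderm genes lay above day 4 mainly in replicate 1. Of 24 tested, 9 were higher and 0 lower on all 4 day 5 arrays, all 9 were beyond the 8 day 4 arrays, and Dkk1, Shh and Cpm, a carboxypeptidase, rose by the test. The list median was 0.55 in replicate 1 and 0.05 in replicate 2, and the mean level was 8.85 and 8.80 on day 4, 9.66 and 9.39 in replicate 1 and 8.94 and 8.81 in replicate 2. Sox17, the endoderm and endothelial SOX factor, read 6.88 and 6.91 on day 4 and 9.19, 8.74, 8.48 and 8.32 on day 5 (1.79 ± 0.34, limma adjusted p = 0.0514). Cer1, a secreted Nodal and BMP antagonist, read 7.52 and 7.63, then 10.21 and 9.37 in replicate 1, then 8.26 and 7.80 in replicate 2. Its replicates differed more than its days did (1.33 ± 0.59, adjusted p = 0.343). Lhx1, a LIM factor of mesendoderm, had opposite signs in the replicates (1.05 and -1.05), as did Foxa2, a pioneer factor of endoderm (1.06 and -0.10).

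Several visceral endoderm and basement membrane genes were higher than on day 4 of the same line, few of them beyond the knockdown line. Of 25 visceral endoderm genes, 10 were higher and 1 lower on all 4 day 5 arrays, 1 was beyond all 8 day 4 arrays, and Apoe, a lipid carrier, rose by the test (1.06 ± 0.20, limma adjusted p = 0.0477). Apoe read 12.30 to 12.84 on day 5 and 11.95 to 12.88 in the knockdown line on day 4, so those overlapped. The defining members Afp, Ttr and Hnf4a did not separate (0.25 ± 0.16, 0.07 ± 0.20 and 0.06 ± 0.19), while Gata4 (1.35 ± 0.56) and Sox7 (1.22 ± 0.69) were higher on all 4 arrays. Of 22 basement membrane genes, 10 were higher and 1 lower. Lama1, laminin alpha 1, read 8.49 and 8.95 on day 4 and 10.29, 10.28, 10.92 and 10.85 on day 5 (1.86 ± 0.59, adjusted p = 0.183), against 9.17 to 11.79 in the knockdown line. The collagen IV chains Col4a1 and Col4a2 differed by 1.59 ± 0.47 and 1.75 ± 0.46 and were also inside the knockdown range. The part of visceral endoderm in the other differences was not tested. Fibroblast markers, a check on carried-over feeder cells, gave 4 of 21 higher and 1 lower, with a mean level of 7.65 on both day 4 arrays and 7.72 to 7.91 on day 5; Lum was below the filter and their part was not tested.

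Replication genes had the highest share of lower members among the 39 lists, with small differences. Of 36 genes of replication licensing and S phase, 29 (80.6%) were lower and 1 higher on all 4 day 5 arrays, 15 were lower than all 8 day 4 arrays, and the median was -0.24 (-0.19 in replicate 1 and -0.27 in replicate 2). Ccne1, cyclin E1, which with Cdk2 starts S phase, was the one member that fell by the test. It read 11.67 and 11.79 on day 4 and 10.93, 10.998, 10.85 and 10.75 on day 5 (-0.85 ± 0.12, limma adjusted p = 0.0233), and 11.61 to 11.94 in the knockdown line. The MCM helicase subunits Mcm3, Mcm4, Mcm5, Mcm6 and Mcm7 were lower on all 4 arrays, with differences from -0.25 to -0.12, and Mcm2 overlapped. Mcm4 read 11.68 and 11.74 and then 11.48, 11.49, 11.45 and 11.46, with the 4 day 5 arrays close together. Pole2, a subunit of polymerase epsilon, read 9.49 and 9.56 and then 9.16, 9.16, 9.18 and 9.23 (-0.34 ± 0.08, adjusted p = 0.0842). Gins2, of the GINS complex, differed by -0.38 ± 0.11, and Fen1, the flap nuclease, by -0.45 ± 0.17. The higher member was Rfc4, a clamp loader subunit (0.21 ± 0.10). Cdt1, Gmnn, E2f1 and Dbf4 were among the 6 whose days overlapped.

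The scaling of the arrays changed these counts. With arrays centred on their medians, 17 of the 36 replication genes (47.2%) were lower on all 4 day 5 arrays and 0 higher, against 8.94% of all genes lower. On the values as deposited 26 were lower and 1 higher.

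Promoters of these genes are shown because the members of the list were lower together and E2F factors are known regulators of S phase genes. In the RefSeq promoter table (GRCm38.p6, 250 bases before to 50 after each start), 31 of the 36 genes matched, with 37 promoters. Only the 250 bases before each start were searched for motifs. The E2F half-site TTCCCGC, on either strand, occurred in 9 of the 37 promoters, of 8 genes, and in 3.82% of 32851 promoters. All 8 genes were lower on all 4 day 5 arrays, as were 29 of the 36 genes (80.6%) of the whole list. A link between the motif and the lower level was not tested. The motif was chosen after the values had been seen, and a match does not show binding. The 3 members with a match and the most negative day difference were Rpa2, of the single-strand binding complex, Cdc6, the licensing loader, and Cdc7, the kinase that fires origins. They differed by -0.31 ± 0.11, -0.31 ± 0.13 and -0.30 ± 0.11. The 250 bases upstream of each start are printed on the gene's strand, at chr4:132768110-132768359, chr11:98907901-98908150 and chr5:106964311-106964560, all on the plus strand, with each match in capitals.
Rpa2: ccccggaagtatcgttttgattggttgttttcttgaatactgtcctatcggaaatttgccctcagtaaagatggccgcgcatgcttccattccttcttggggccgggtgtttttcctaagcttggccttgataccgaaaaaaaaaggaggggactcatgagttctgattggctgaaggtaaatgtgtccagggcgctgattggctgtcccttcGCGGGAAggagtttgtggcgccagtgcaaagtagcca
Cdc6: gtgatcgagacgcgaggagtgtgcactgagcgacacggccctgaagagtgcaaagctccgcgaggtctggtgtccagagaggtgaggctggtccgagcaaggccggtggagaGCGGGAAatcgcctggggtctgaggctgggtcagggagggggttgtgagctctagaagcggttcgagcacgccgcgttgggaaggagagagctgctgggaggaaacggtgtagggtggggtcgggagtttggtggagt
Cdc7: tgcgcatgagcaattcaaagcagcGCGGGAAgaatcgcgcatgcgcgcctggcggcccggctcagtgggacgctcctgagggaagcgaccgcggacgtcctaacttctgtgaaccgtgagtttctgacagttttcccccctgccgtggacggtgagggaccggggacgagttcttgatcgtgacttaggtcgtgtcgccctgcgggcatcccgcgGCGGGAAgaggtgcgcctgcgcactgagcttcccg
Rpa2 and Cdc6 hold 1 match each and Cdc7 holds 2. Of the other motifs searched in the same promoters on both strands, TTGGCGC occurred in 3 of the 37 (1.97% of all promoters), CCAAT in 19 (33.8%), TCACGTG in 2 (3.13%), AGATAA in 2 (9.99%) and ATGCAAAT in 0 (1.60%).

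Rpa2 read 10.25 and 10.36 on day 4 and 10.12, 10.08, 9.92 and 9.87 on day 5, below every knockdown array (10.22 to 10.42). Cdc6 read 10.85 and 10.94 and then 10.72, 10.79, 10.40 and 10.43, and Cdc7 9.32 and 9.45 and then 9.21, 9.16, 9.07 and 8.92. In each of the 3 genes replicate 2 was the lower day 5 replicate.

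**Figure D4:**
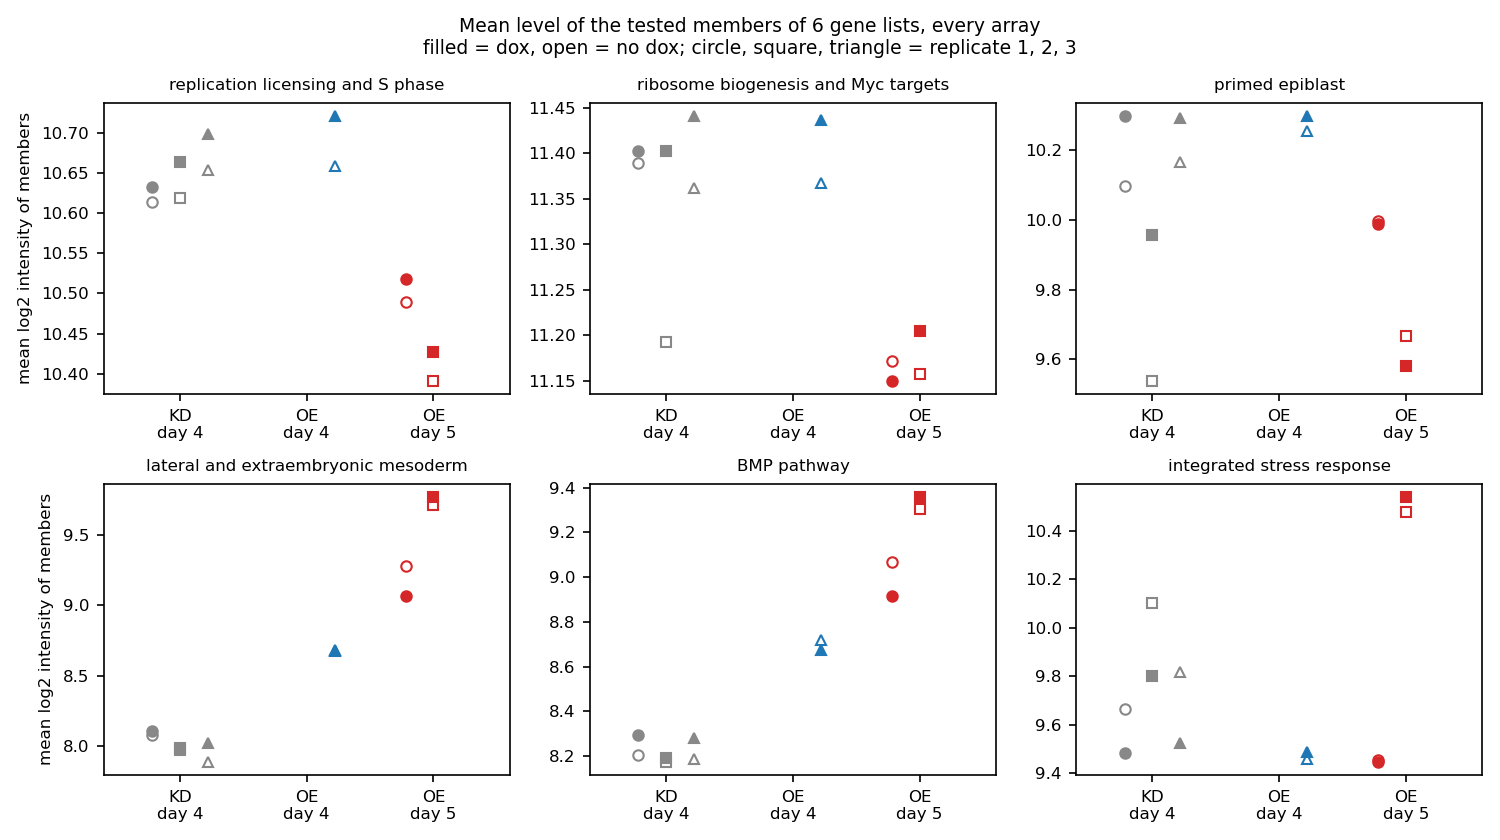
Mean log2 intensity (vertical) of the tested members of 6 gene lists on each of the 12 arrays, grouped as the knockdown line on day 4 (grey), the overexpression line on day 4 (blue) and on day 5 (red), with filled points for dox and circles, squares and triangles for replicates 1, 2 and 3. Replication genes lie at 10.39 to 10.52 on day 5 and 10.66 to 10.72 on day 4 of the overexpression line. Stress response genes are highest in day 5 replicate 2 (10.48 and 10.54), followed by the knockdown control array of replicate 2 (10.10).

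Ribosome biogenesis genes were also mostly lower. Of 28, 16 were lower and 0 higher on all 4 day 5 arrays, 6 were lower than all 8 day 4 arrays, none passed the test, and the median was -0.24. Rrp12, a processing factor, read 10.07 and 10.20 and then 9.56, 9.59, 9.64 and 9.77 (-0.49 ± 0.11, limma adjusted p = 0.0793). Polr1b, a subunit of RNA polymerase I, differed by -0.38 ± 0.10 (adjusted p = 0.119). Myc did not separate (-0.10 ± 0.16). With arrays centred on their medians 10 of the 28 were lower. Of 29 genes of G2 and mitosis, 11 were lower and 1 higher, with a median of -0.12, and the cyclin Ccnb2 and the kinase Aurka overlapped. Among 16 cell cycle inhibitors and D cyclins, 5 were higher, including Ccnd2 (0.72 ± 0.23, adjusted p = 0.195), and Ccnd1 was lower (-0.21 ± 0.16). Of 23 genes of the p53 response, 10 were higher and 3 lower, and none passed the test. Trp53inp1 had the smallest adjusted p of that list (0.58 ± 0.12, adjusted p = 0.0713).

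In the FGF pathway none of 24 genes passed the test. On all 4 day 5 arrays, 8 were lower and 5 higher, and the phosphatase Dusp4, a feedback target, was among the higher (0.35 ± 0.16). Spry2 and Spry4, inhibitors induced by FGF signalling, differed by -0.45 ± 0.09 (limma adjusted p = 0.0601) and -0.55 ± 0.11 (adjusted p = 0.0654), and the ETS factors Etv4 and Etv5 by -0.64 ± 0.14 and -0.50 ± 0.11. Spry4 read 9.74 and 9.83 on day 4 and 9.26, 9.32, 9.07 and 9.28 on day 5, with the knockdown line at 9.41 to 9.83. The ligand Fgf3 was on the other side (0.77 ± 0.23, adjusted p = 0.168), and the receptor Fgfr1 overlapped (-0.19 ± 0.14).

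Of 19 retinoic acid genes, 4 were higher and 3 lower on all 4 arrays. Aldh1a2 rose, and Rxrg, a retinoid receptor, fell from 7.68 and 7.87 to 7.11, 7.14, 6.74 and 6.97 (-0.79 ± 0.14, limma adjusted p = 0.0433). The binding protein Crabp1 read 8.76 and 8.76 and then 9.27, 9.50, 10.49 and 10.70 (1.23 ± 0.37, adjusted p = 0.163), with replicate 2 above replicate 1. The receptors Rara, Rarb and Rarg and the degrading enzyme Cyp26a1 overlapped. Of 21 Wnt response genes, 6 were higher and 3 lower, and Dkk1 was the one that passed the test; Axin2, a general readout of Wnt signalling, overlapped (-0.22 ± 0.35). Of 23 Notch genes, 7 were higher and 1 lower. Maml3, a coactivator of Notch, rose by 0.73 ± 0.13 (adjusted p = 0.0457), and the target Hes1 differed by 0.52 ± 0.12 (adjusted p = 0.0761). Of 19 genes of the Nodal pathway, 3 were higher and 4 lower; Nodal itself overlapped (-0.17 ± 0.14), and Skil, a repressor of Smad signalling, differed by -0.51 ± 0.11 (adjusted p = 0.0665).

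Several lists differed more between the day 5 replicates than between the days. The gap between replicates exceeded the day difference in 58.8% of all genes, and its share was highest in the cholesterol synthesis and integrated stress response lists, followed by naive pluripotency (14 of 18), primitive blood (13 of 17) and general pluripotency (14 of 19). Of 28 integrated stress response genes, 7 were higher and 0 lower on all 4 day 5 arrays, and the gap between day 5 replicates exceeded the day difference in 25. The median difference from day 4 was -0.06 in replicate 1 and 0.98 in replicate 2. Trib3, a pseudokinase induced by Atf4, read 7.57 and 7.64 on day 4, 7.69 and 7.19 in replicate 1 and 9.65 and 9.79 in replicate 2. Slc7a11, the cystine transporter, read 5.94 and 6.18, then 5.98 and 5.76, then 8.15 and 8.34. Cholesterol synthesis genes showed the opposite direction in the same replicate. Of 19, 3 were lower on all 4 arrays, and the gap between replicates exceeded the day difference in all 19, with medians of 0.03 in replicate 1 and -1.08 in replicate 2. Idi1, an isomerase of the pathway, read 11.83 and 11.73 on day 4, 11.74 and 11.44 in replicate 1 and 10.34 and 9.72 in replicate 2. Both replicates were set against the same 2 day 4 arrays, so their differences are not independent. In the knockdown line on day 4, the control array of replicate 2 differed from those of replicates 1 and 3 in the same directions. Mean levels were 10.10 against 9.67 and 9.82 for stress response and 10.17 against 10.75 and 10.69 for cholesterol synthesis. For naive pluripotency they were 9.71 against 9.19 and 9.03. The dox array of replicate 2 differed likewise. A link by replicate number was not tested.

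**Figure D5:**
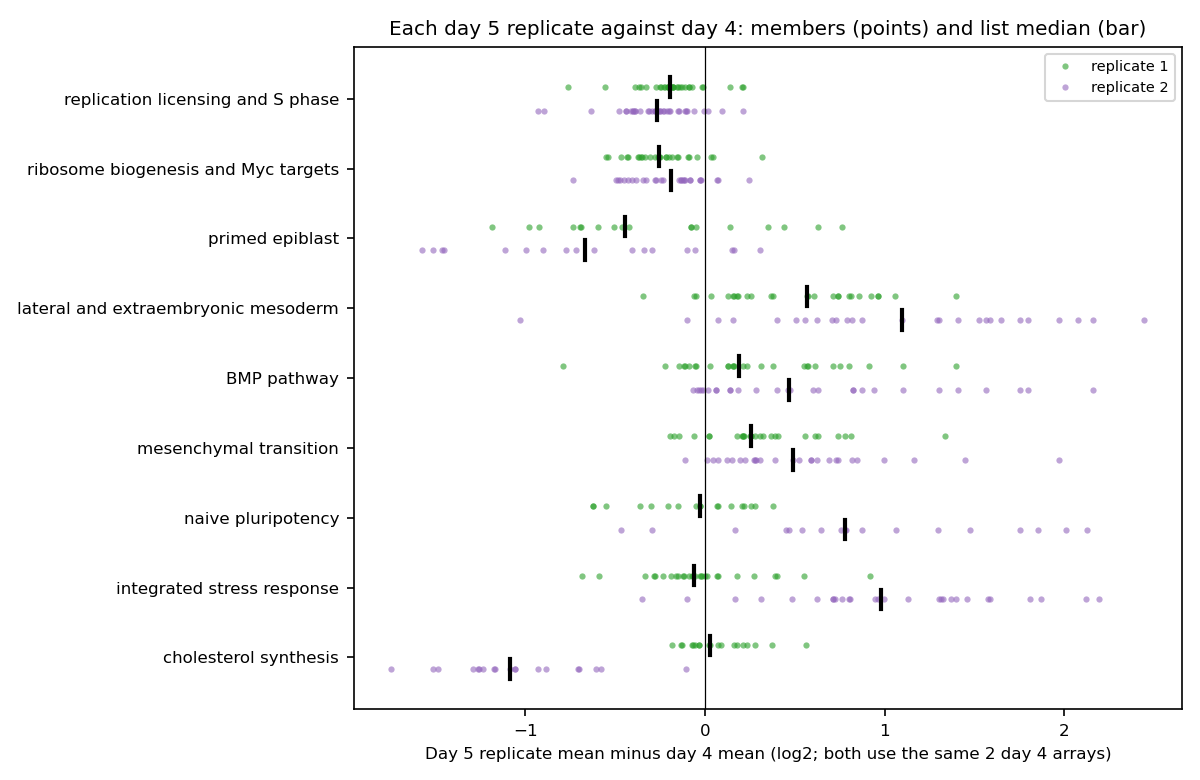
Difference of each day 5 replicate from the mean of the 2 day 4 arrays (log2, horizontal) for the tested members of 9 gene lists, with replicate 1 in green, replicate 2 in purple and black bars at the list medians. Replication, ribosome, epiblast and mesoderm lists have medians on one side of 0 in both replicates; the naive, stress and cholesterol lists sit near 0 in replicate 1 (-0.03, -0.06 and 0.03) and apart in replicate 2 (0.78, 0.98 and -1.08).

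The other lists are given by their counts, against 15.4% higher and 15.1% lower over all genes. Of 36 neural ectoderm genes, 1 was higher and 6 lower on all 4 day 5 arrays, among them Sox1 (-0.25 ± 0.12), and Pax6 overlapped (0.03 ± 0.16). Of 18 surface ectoderm genes, 5 were higher and 3 lower, of 13 trophoblast genes 4 and 1, and of 15 germ cell genes 6 and 2, with Ifitm1 among the higher and Kit, the stem cell factor receptor, at 0.70 ± 0.14 (limma adjusted p = 0.0564). Of 22 imprinted genes, 9 were higher and 3 lower. Dlk1, one of them, split by replicate (8.50 and 8.71 on day 4, 8.23 and 8.19 in replicate 1, 10.65 and 11.08 in replicate 2). Of 17 interferon genes, 5 were higher and 2 lower. Usp18, a deconjugase induced by interferon, rose by 0.77 ± 0.11 (adjusted p = 0.0212) and B2m, the light chain of MHC class I, by 1.04 ± 0.18 (adjusted p = 0.043), while Irf7 and Bst2 overlapped (0.08 ± 0.13 and 0.12 ± 0.13). Of 26 hypoxia and glycolysis genes, 7 were higher and 2 lower. Vegfa, the vascular growth factor, read 7.68 and 7.71 on day 4, 8.76 and 8.78 in replicate 1 and 10.08 and 10.00 in replicate 2 (1.71 ± 0.50, adjusted p = 0.153), inside the range of the knockdown line (7.65 to 9.53) for replicate 1. Of 28 polycomb genes, 2 were higher and 6 lower, with Phc1 at -0.69 ± 0.14 (adjusted p = 0.0671). Of 23 interstitial matrix genes, 4 were higher and 0 lower.

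No dependence of the day difference on dox was detected. The difference between the day effects with and without dox passed in 0 of 15950 genes by limma (smallest adjusted p = 1.00), where 108 genes (0.677%) had an unadjusted p under 0.05. The day 4 arms hold 1 array each in this contrast. Within dox arrays alone or control arrays alone, the day difference also rests on 1 day 4 array, with the spread taken from all groups. The median day difference of all genes was 0.0098 with dox and -0.0071 without. These repeat the fits without the day 4 control array and without the day 4 dox array, and are no separate check.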

How the data were processed

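RNA of the 12 samples was hybridised to Affymetrix whole-transcript arrays from 1 µg of RNA, per the labels' protocols. The authors deposited a linear intensity per probe set; how these were summarised and scaled is not given in the sources used here. Here log2(intensity + 1) was quantile normalised over the 12 arrays. Of 35512 probe sets, 21789 name 1 gene, 1621 several and 12102 none; the brightest probe set stood for each of 19938 genes, and 15950 with a mean above the 20th percentile (log2 6.46) were tested. The number of arrays limits the precision. limma 3.58.1 in R 4.3.3 fitted a baseline per line and day and a dox effect per line, with Benjamini-Hochberg adjustment at 0.05, and was tested on simulated data. The design had no replicate block. Named were Gmnn, Hprt, the 15 called genes with the largest difference in each direction and up to 4 genes of largest difference per list; further list members were named for their role. Members and lists were chosen with earlier results of these data known. Alternative scalings, filters, models and left-out arrays were tried.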

Additional observations from a re-analysis of the deposited data

Results flagged for a closer look

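In 5 of the genes named, 1 of the 4 day 5 arrays stood apart from the other three by Dixon's criterion, which chance meets in about 1 in 20 groups. The replicate 1 dox array stood apart in Capn6 (7.74), Sema3a (7.74), Gins2 (9.49) and Smad5 (9.40), and the replicate 1 control array in Cyba (10.75). Capn6, Sema3a and Cyba had passed the test of day 5 against day 4, and Gins2 and Smad5 had not.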

How the results depend on the processing

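Day 4 of this line rests on 2 arrays of 1 replicate number, which limits every value. Against 63 genes that rose and 26 that fell, limma called 21 and 12 with arrays centred on their medians, 17 and 10 without the filter on dim genes, 14 and 5 on the 6 arrays alone, 119 and 59 with an intensity trend and 1450 and 1117 with array weights. The day difference within control arrays alone or dox arrays alone repeated the fits without the day 4 dox array or the day 4 control array. With replicate number within each line as a random block, 0 rose and 0 fell. Samples with the same number deviated together with r = 0.785 in the day 5 arrays and 0.602, 0.438 and 0.051 in the knockdown line, so arrays of one number were alike in all pairs but the last. The labels do not say what a number marks, a fixed block cannot be fitted beside day, and the printed fit has no block. With 1 array left out, 0 to 109 genes rose and 0 to 39 fell, and where that array was of the overexpression line 2769 to 3919 genes were consistent and higher, 2788 to 3869 consistent and lower, 832 to 1069 higher than all day 4 arrays and 638 to 781 lower. Leaving out both day 5 arrays of a replicate, other scalings of the gene lists and the lysosome list were chosen after seeing the data. Without replicate 1, 257 genes rose and 93 fell, 5115 and 4949 were consistent (higher, then lower), and 2275 and 1687 lay beyond all day 4 arrays. Without replicate 2, 2 rose and 1 fell, 4681 and 4711 were consistent, and 1696 and 1918 lay beyond. Fewer arrays make the consistency rule easier to meet. Median centring gave 1426 consistent genes lower and 272 lower than all 8 day 4 arrays. The count of 0 genes for the difference between day effects with and without dox was the same on the 6 arrays alone and with the block. Of 176 of the genes named, 34 changed sign under at least 1 alternative, none of them among the 55 that had passed the test. All called genes were consistent, so leaving out arrays or using 1 dox arm could not turn their sign. That none did is therefore no separate support for the calls. Except where fewer arrays or genes entered, the cause of the changes in count or sign was not tested.

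Day differences that changed sign with the scaling were, on the values as deposited, Acvr1 0.043, E2f1 0.016, Lhx1 0.0056, Pax6 -0.0090, Rarb -0.029 and Snai1 0.016. With arrays centred on their medians they were Acvr1 0.071, Ccnb2 0.027, E2f1 0.043, Gata1 0.016, Gmnn 0.018, Lhx1 0.033, Rarb -0.0011, Snai1 0.043 and Tfeb 0.025. With a pseudocount of 32, Lhx1 was at 0.014. With array weights Acvr1 was at 0.045, Rarb at -0.013, Snai1 at 0.019 and Tfeb at 0.013. Control arrays alone gave Acvr1 0.13, Bmp6 -0.15, Hand1 -0.055, Lhx1 0.069, Rarb -0.13, Smad9 -0.044 and Ttr -0.020. Dox arrays alone gave Bmpr1b 0.038, Ccnb2 0.049, E2f1 0.15, Gata1 0.019, Gmnn 0.066, Nkx2-5 0.096, Pax6 -0.17, Snai1 0.12 and Tfeb 0.074.

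Without both replicate 2 arrays the sign turned in genes that split between the day 5 replicates, with Dlk1 at -0.39, Nr0b1 at -0.21, Slc7a11 at -0.19, Trib3 at -0.16, Fgf5 at 0.14 and Lhx1 at 1.05. It also turned in Actc1 (0.0051), Aurka (0.016), Bmpr2 (-0.11), Gmnn (0.14), Hand1 (-0.051), Pax6 (-0.036) and Tnnt2 (-0.021). Without both replicate 1 arrays it turned in Acvr1 (0.14), Axin2 (0.23), Bmpr1a (0.059), Ccnb2 (0.018), Cdt1 (0.018), Dbf4 (0.092), Etv2 (0.14), Foxa2 (-0.098), Myc (0.071), Rara (0.22), Rarb (-0.033), Smad7 (0.016), Smad9 (-0.033), Snai1 (0.12), Tfeb (0.18) and Ttr (-0.054). With 1 array left out, Acvr1 ranged from -0.14 to 0.13, Bmp6 from -0.15 to 0.24, Bmpr1b from -0.14 to 0.038, Bmpr2 from -0.00075 to 0.17 and Smad9 from -0.044 to 0.22. Ccnb2 ranged from -0.060 to 0.049, Dbf4 from -0.13 to 0.0087, E2f1 from -0.17 to 0.15 and Gmnn from -0.16 to 0.073. Lhx1 ranged from -0.47 to 0.46, Hand1 from -0.055 to 0.41, Nkx2-5 from -0.34 to 0.096, Gata1 from -0.11 to 0.019 and Ttr from -0.020 to 0.16. Pax6 ranged from -0.17 to 0.22, Rara from -0.38 to 0.0022, Rarb from -0.13 to 0.14, Snai1 from -0.14 to 0.12 and Tfeb from -0.19 to 0.074.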

Other observations

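A group outside the fixed lists stood out among the called genes. Of the 63 genes that rose, 10 encode proteins of the lysosome or, for Gnptg, of the making of its enzymes: Hexa, Ctsd, Lamp2, Npc2, Grn, Glmp, Atp6v1h, Laptm4b, Rragc and Gnptg. A list of 55 lysosomal genes was therefore written after the values had been seen, so its counts are a description only. Of the 40 tested members that were not called, 34 (85.0%) were higher and 1, Ids, was lower on all 4 day 5 arrays, against 15.4% of all genes higher, and the median difference was 0.52 (0.40 in replicate 1 and 0.58 in replicate 2). Their mean level was 9.58 and 9.60 on day 4, 10.03 and 10.05 in day 5 replicate 1 and 10.23 and 10.27 in replicate 2. Day 4 arrays of the knockdown line ran from 9.75 to 10.29, within which the day 5 arrays lie, and 8 of the 40 were higher than all 8 day 4 arrays. Hexa, a subunit of beta-hexosaminidase, rose by 1.04 ± 0.17 and Npc2, which hands cholesterol out of the lysosome, by 0.85 ± 0.11 (limma, adjusted p = 0.0384 and 0.0155). Among members that did not pass, the protease Ctsh differed by 1.58 ± 0.44 and Lgmn by 1.31 ± 0.47, and Tfeb, a regulator of lysosomal genes, overlapped (-0.05 ± 0.20). The E-box TCACGTG, on either strand, occurred in 8 of 60 promoters of the genes that rose, in 1 of 38 of those that fell and in 3.13% of 32851 promoters. The motif was chosen after the values had been seen, and other motifs were searched as well. It was counted over all genes that rose and not over the lysosomal genes, so a link to those genes or to Tfeb was not tested.

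The largest consistent difference of all genes belonged to Srgn, a secretory granule proteoglycan, named after its value was seen (2.19 ± 0.57, limma adjusted p = 0.12); its day 5 arrays overlapped the knockdown line.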
